A study of Mus musculus with 30 samples.

Results

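The 10 genes described here are protein genes of the mouse mitochondrial genome: *mt-Nd1*, *mt-Nd2*, *mt-Nd4*, *mt-Nd5* and *mt-Nd6* of complex I, *mt-Cytb* of complex III, *mt-Co1*, *mt-Co2* and *mt-Co3* of complex IV, and *mt-Atp6* of the ATP synthase. They were taken by symbol from the 56941 Ensembl genes of the count tables, and all 10 were found. The choice was made with earlier results of these data known. They are 10 of the 37 genes of the mitochondrial genome. Levels were followed gene by gene over dose and time, as CPM (reads on a gene scaled to a fixed library total, adjusted by the TMM factors of edgeR) and as a share of all reads on mitochondrial genes.

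The cells were the mHypoA-2/12 line, adult mouse hypothalamic neurons that were immortalised and are grown as a single line. They received cannabidiol (CBD) at 0.325, 0.75, 1.5 or 3 µM, or vehicle alone, for 6 h or 24 h. All groups, vehicle included, were in DMEM with GlutaMAX and DMSO. The 30 libraries form 10 groups of 3, and the labels do not say whether the 3 came from separate cultures, so that p-values measure the spread between these libraries, which may be technical. RNA was read from the 3′ end of polyadenylated transcripts (QuantSeq 3′ mRNA-Seq).

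Reads on genes ranged from 1839621 to 4420675 per library. Pairs of replicates differed by more than sampling noise in every group. Of the neuronal markers, *Tubb3* had a median of 49.4 CPM and *Map2* 24.4 CPM, while *Rbfox3* had 47 reads and *Snap25* 4 reads in all libraries together. The peptide genes *Npy*, *Agrp*, *Pomc* and *Cartpt* had 1, 15, 3 and 0 reads. Mesenchymal genes were abundant, with *Col1a1* at a median of 2010.0 CPM and *Vim* at 2214 CPM. The label of a neuronal line therefore rests on a part of its markers.

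The mitochondrial genome is a small circle, transcribed from both strands as long precursors that are cut at the tRNAs between the genes. Most of the mRNAs released in this way receive a poly(A) tail, and the mRNAs are translated inside the organelle. Their products are core subunits of the respiratory chain and of the ATP synthase, which are completed by many more subunits encoded in the nucleus. Genes of a strand share a precursor, and processing and stability are known to set their mRNA levels apart.

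The last 100 bases of the sense strand, where a 3′ library reads, are shown for the complex IV genes and *mt-Atp6*, which the counts treat very differently, and for *mt-Nd4*, the gene with most reads. Lower case marks bases identical to the closest annotated nuclear copy, and capitals mark bases that differ from it or lie outside it. Positions are on GRCm38, all on the plus strand: chrM:6773-6872 for *mt-Co1*, chrM:7597-7696 for *mt-Co2*, chrM:8508-8607 for *mt-Atp6*, chrM:9291-9390 for *mt-Co3* and chrM:11445-11544 for *mt-Nd4*.
*mt-Co1*: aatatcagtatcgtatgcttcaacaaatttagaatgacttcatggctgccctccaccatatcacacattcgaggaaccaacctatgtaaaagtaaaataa
*mt-Co2*: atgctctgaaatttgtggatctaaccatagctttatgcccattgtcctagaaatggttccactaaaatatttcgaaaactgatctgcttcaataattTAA
*mt-Atp6*: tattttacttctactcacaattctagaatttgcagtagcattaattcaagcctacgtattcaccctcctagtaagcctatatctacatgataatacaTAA
*mt-Co3*: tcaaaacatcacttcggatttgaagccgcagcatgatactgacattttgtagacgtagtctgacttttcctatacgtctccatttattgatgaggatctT
*mt-Nd4*: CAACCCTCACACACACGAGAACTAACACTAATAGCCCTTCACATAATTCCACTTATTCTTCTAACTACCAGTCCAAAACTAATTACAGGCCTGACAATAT

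In these stretches *mt-Co2*, *mt-Atp6* and *mt-Co3* match a nuclear copy without a difference up to the end of its annotation. The capitals at their ends lie past that annotation, where sequence was not compared. *mt-Co1* matches throughout, and *mt-Nd4* has no annotated copy there. The copies are pseudogenes of a single block on the minus strand of chromosome 1, chr1:24611535-24616197, with 7 annotated genes. *Gm28661* is identical to *mt-Co2* over bases 1 to 681 of 684, *Gm10925* to *mt-Atp6* over bases 1 to 678 of 681, and *Gm28437* to *mt-Co3* over bases 1 to 783 of 784. *Gm28439* holds bases 1 to 876 of the 1378 of *mt-Nd4*, which leaves out the 3′ part. *Gm29216* matches *mt-Co1* over bases 1063 to 1545, with a single difference, A1066T, counted from 1 at the first base of *mt-Co1*.

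*mt-Co2* and *mt-Co3*, which encode catalytic core subunits of cytochrome c oxidase, had 0 reads in all 30 libraries. *mt-Atp6*, the proton channel subunit of the ATP synthase, had 4 reads in all. A count of 0 over the 84273080 reads on genes allows 3 reads, or 0.0356 CPM, and in single libraries the same floor lay between 0.679 and 1.63 CPM. Floors cover counting error only. These 3 genes could thus not be measured in any group, and nothing is said of them with dose or time.

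The share of 100-base windows with an identical stretch in an annotated nuclear transcript was 99.5% for *mt-Co2*, 99.5% for *mt-Atp6* and 99.9% for *mt-Co3*. It was 60.8% for *mt-Nd4*, with 0% of the last 200 windows, and 30.8% for *mt-Co1*, with 100% of the last 200. *mt-Nd2* had 3.19%, and *mt-Nd1*, *mt-Nd5*, *mt-Nd6* and *mt-Cytb* had 0%. The 3 members with nearly all windows copied were those at or near 0 reads, and a gene copied along its 3′ end, *mt-Co1*, still had 106677 reads. Of the protein genes outside the set, *mt-Nd4l* (98.5% copied) had 0 reads and *mt-Nd3* (97.6% copied) had 342. *mt-Atp8* (chrM:7766-7969) also had 0 reads, with 0% of its windows found in annotated transcripts. It lies between *mt-Co2* and *mt-Atp6* and overlaps the latter. The copies of those genes are chr1:24614885-24615565 and chr1:24613974-24614651. Sequence outside annotated transcripts, such as that between these copies, was not compared, so the 0% does not show *mt-Atp8* to be uncopied. The count tables set aside between 619734 and 1239550 alignments per library as not unique, and the 7 copies on chromosome 1 held 981 reads in all. How many of the uncounted reads came from these genes was not tested.

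**Figure D1:**
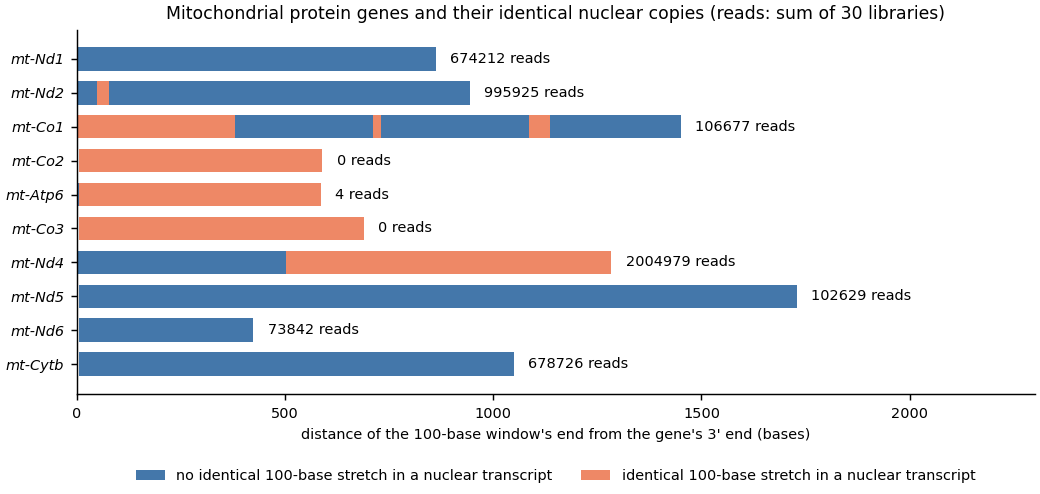
Each row is a protein gene, drawn from its 3′ end (distance in bases on the x axis), with 100-base windows coloured by whether an annotated nuclear transcript holds the identical stretch. The number beside each row is its reads over 30 libraries. *mt-Co2*, *mt-Co3* and *mt-Atp6* are copied almost throughout and hold 0, 0 and 4 reads, and *mt-Nd4* is copied only away from its 3′ end and holds 2004979.

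The other 7 genes had at least 1000 reads in every library. Their order per length, as median CPM per kilobase over 30 libraries, was *mt-Nd4* at 16548, *mt-Nd2* at 11669.6, *mt-Nd1* at 8165, *mt-Cytb* at 6783, *mt-Nd6* at 1468, *mt-Co1* at 826 and *mt-Nd5* at 661. *mt-Nd2*, *mt-Nd4* and *mt-Nd5* encode related proton-pumping subunits in the membrane arm of complex I, and *mt-Nd4* and *mt-Nd5* stood at opposite ends of this order. Without the division by length *mt-Nd6* was the lowest of the 7. Its median was 746 CPM, against 1208 CPM for *mt-Nd5*, both without TMM factors. Ranges over libraries overlapped between each neighbouring pair in the order except *mt-Cytb*, whose lowest library had 4346 CPM per kilobase, and *mt-Nd6*, whose highest had 3883. *mt-Nd6* is the protein gene of the light strand, encoded at chrM:13552-14070 on the minus strand, and it overlaps *mt-Nd5* (chrM:11742-13565, plus strand) by 14 bases. The strand setting of the counting is not stated, so reads of these 2 genes near the overlap may be shared. Because a 3′ library gives a fragment per transcript, the level per length understates long genes. The 3′ end of *mt-Co1* is copied in a nuclear transcript, so its level may lack reads set aside as not unique. That was not tested.

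The order of the 7 genes stayed the same with time, while the distances between them changed. At 6 h the medians were 14213 CPM per kilobase for *mt-Nd4* and 13262 for *mt-Nd2*, a ratio of 1.07, and at 24 h they were 19666.5 and 10275, a ratio of 1.91. *mt-Nd4* thus moved away from *mt-Nd2*, the gene nearest to it. The ratio of the highest to the lowest of the 7 genes went from 19.4 to 31.5.

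All genes of the mitochondrial genome together took 8.39% ± 0.063 of the reads on genes in vehicle at 6 h (SD, n = 3) and 8.92% ± 0.782 in vehicle at 24 h. CBD groups had means between 8.0% and 8.59% at 6 h and between 7.33% (0.325 µM) and 7.83% (3 µM) at 24 h. The 12 CBD libraries of 24 h lay between 7.10% and 8.11%, all below the 3 vehicle libraries, which lay between 8.43% and 9.82%. The third vehicle library of 24 h had the highest share of all. In bulk RNA, fewer mitochondria or cells of a kind and less RNA in each cannot be told apart.

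More of these genes passed a test of time than of CBD. The mean of the 5 groups of 24 h was compared with the mean of the 5 groups of 6 h, a comparison added after the values were seen. Of the 7 genes, 6 passed the edgeR quasi-likelihood test, where 58.9% of all 12790 genes tested did so. *mt-Nd4* and *mt-Nd6* rose, where 28.4% of all genes rose, and *mt-Nd1*, *mt-Nd2*, *mt-Co1* and *mt-Nd5* fell, where 30.5% of all genes fell. The count of 6 is above that background share, which was not tested over so few genes. Time cannot be told apart from when the libraries of each time were collected and handled.

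*mt-Nd4* had a lowest, median and highest level of 15594, 19585 and 31060.0 CPM in the 15 libraries of 6 h. At 24 h these were 19987, 27100.4 and 39170.1 CPM. The groups overlapped, mainly through the third 0.75 µM library of 6 h, which held the highest value of that time. The log2 fold change was 0.45 (SE 0.072, FDR = 2.2e-06), and as a share of mitochondrial reads *mt-Nd4* went from a median of 22.5% to 34.4%.

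*mt-Nd6*, the light-strand gene, had 480, 747 and 1378 CPM at 6 h (lowest, median, highest). At 24 h it had 558, 869 and 2015 CPM. Its log2 fold change was 0.39 (SE 0.13, FDR = 0.0139), with the widest spread of the 7 genes and a large overlap between the times. *mt-Cytb*, which carries the b haems of complex III, had medians of 7435 and 8104 CPM and a log2 fold change of 0.09 (95% interval −0.08 to 0.26, edgeR FDR = 0.37).

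*mt-Co1*, the subunit of cytochrome c oxidase with its catalytic centre, was the gene that separated the times. Its 15 libraries of 6 h lay between 1276 and 1582 CPM, with a median of 1444 CPM. Those of 24 h lay between 999 and 1275 CPM, with a median of 1138 CPM. All 15 libraries of 24 h were below all 15 of 6 h although the ranges nearly met, and 2.25% of all genes tested separated the times in this way. The log2 fold change was −0.33 (SE 0.046, FDR = 1.7e-07).

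*mt-Nd2* had 10418, 13766 and 16775 CPM at 6 h (lowest, median, highest). At 24 h it had 7717, 10666 and 13477 CPM, and the log2 fold change was −0.37 (SE 0.059, FDR = 2.1e-06). *mt-Nd1*, which lies where quinone enters complex I, had medians of 8607 CPM at 6 h and 7254 CPM at 24 h (log2 fold change −0.23, SE 0.049, FDR = 0.00014). *mt-Nd5* had medians of 1334 and 1139 CPM (log2 fold change −0.21, SE 0.050, FDR = 0.00044). For each of these 3 genes the ranges of the times overlapped, and the medians of 24 h were the lower ones.

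Along the map, risers and fallers were mixed past *mt-Nd4*. From the start of the annotated circle, *mt-Nd1* (chrM:2751-3707), *mt-Nd2* (chrM:3914-4951) and *mt-Co1* (chrM:5328-6872) fell, as did the rRNA genes that precede them. The log2 fold change of *mt-Rnr1* was −0.56 (SE 0.060) and that of *mt-Rnr2* was −0.54 (SE 0.051). *mt-Nd4* (chrM:10167-11544) rose, *mt-Nd5* beyond it fell, and *mt-Nd6* after that rose, so that position alone does not order the changes. Of the 13 other mitochondrial genes tested, 10 fell and 0 rose by edgeR, where 30.5% of all genes fell and 28.4% rose.

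**Figure D2:**
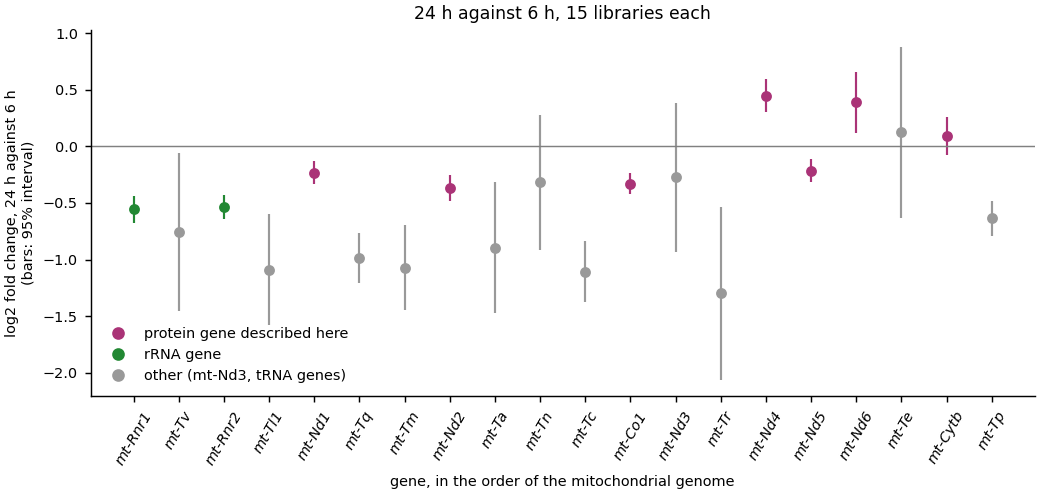
Points are log2 fold changes of 24 h against 6 h (15 libraries each, y axis) with 95% intervals, for the mitochondrial genes tested, in the order of the genome (x axis). *mt-Nd4* at 0.45 and *mt-Nd6* at 0.39 lie above 0, *mt-Nd1*, *mt-Nd2*, *mt-Co1* and *mt-Nd5* lie between −0.37 and −0.21, and the rRNA genes lie at −0.54 and −0.56.

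As a share of mitochondrial reads, the same comparison asks how a gene moved relative to the other mitochondrial transcripts. On this scale 6 of the 7 passed, again beside 58.9% of all genes. *mt-Nd4* (log2 fold change 0.56, SE 0.061), *mt-Nd6* (0.49, SE 0.12) and *mt-Cytb* (0.20, SE 0.075, FDR = 0.0208) rose. *mt-Nd2* (−0.26, SE 0.062), *mt-Co1* (−0.22, SE 0.053) and *mt-Nd1* (−0.12, SE 0.054, FDR = 0.063) fell, and *mt-Nd5* did not pass (−0.10, SE 0.053, FDR = 0.103). With protein genes alone as the denominator the value of *mt-Cytb* was −0.00038 (FDR = 0.997). The call of *mt-Nd1* was lost without the first 0.325 µM, the first 1.5 µM or the third vehicle library of 6 h, at FDR of 0.118, 0.127 and 0.144. The protein genes together held a median of 62.4% of mitochondrial reads at 6 h (60.4% to 71.7%, n = 15) and 73.9% at 24 h (67.6% to 76.7%, n = 15).

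**Figure D3:**
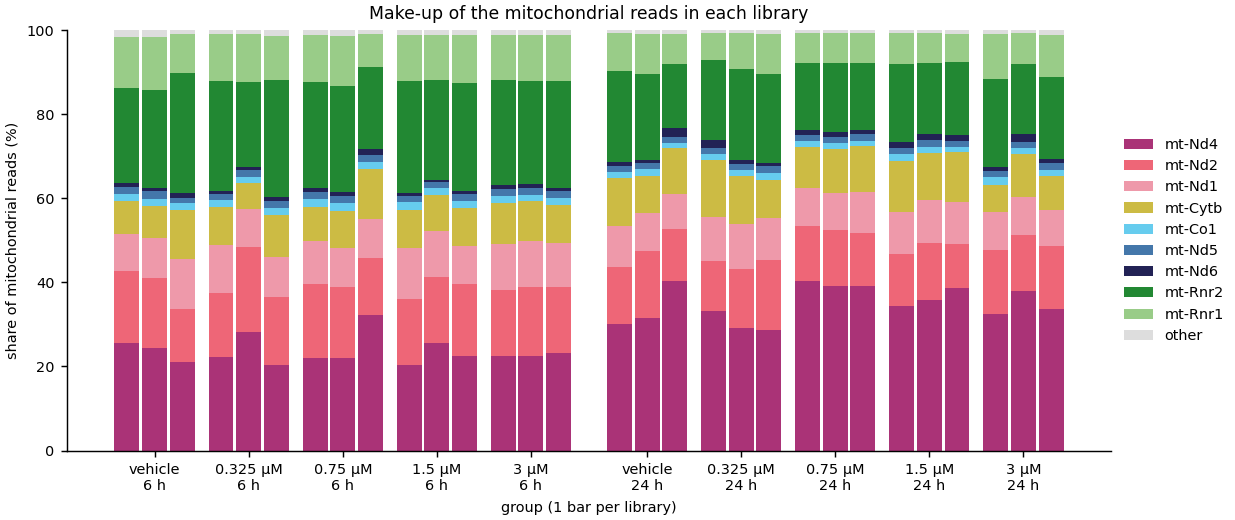
Each bar is a library, grouped by dose and time (x axis), split into the share of mitochondrial reads taken by each gene (y axis, percent). The *mt-Nd4* part has a median of 22.5% at 6 h and 34.4% at 24 h, and the rRNA parts are smaller at 24 h.

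Within vehicle alone, time was tested on 3 against 3 libraries. *mt-Nd4* had 22152, 20888 and 17585 CPM in the vehicle libraries of 6 h and 24952, 26600.3 and 39170.1 CPM in those of 24 h. It was higher in every library of 24 h, and it was the 1 of 7 genes to pass, with a log2 fold change of 0.58 (95% interval 0.26 to 0.91, FDR = 0.0088), where 26.7% of all genes passed. Without the third vehicle library of 24 h the log2 fold change was 0.37 and the FDR 0.134, so the call rests on that library. As a share of mitochondrial reads the log2 fold change was 0.52 (SE 0.14, FDR = 0.0064), and 25% of all genes passed on that scale. Without the third vehicle library of 24 h it was 0.38 (FDR = 0.075).

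*mt-Co1* had 1432, 1517 and 1354 CPM in vehicle at 6 h and 1262, 1275 and 1157 CPM in vehicle at 24 h. The groups did not overlap, which 31.8% of all genes shared, and the log2 fold change was −0.22 (SE 0.10, edgeR FDR = 0.127). *mt-Nd6* had 760, 701 and 944 CPM at 6 h and 720, 720 and 2015 CPM at 24 h. The third library of 24 h alone was high, and the log2 fold change of 0.52 (SE 0.30, FDR = 0.23) became −0.14 without it. The other 4 genes had log2 fold changes between −0.13 and 0.25 that did not pass.

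By edgeR, no gene of the 7 passed against vehicle at any CBD dose, and DESeq2 called 2 of 7 at 0.325 µM and 2 of 7 at 0.75 µM of 24 h. DESeq2 calls were taken for these genes only, so no share of all genes stands beside them. At 6 h, edgeR called 0 of 7 at each dose, where 0.200%, 0.0749%, 0.0999% and 0.050% of the 12012 genes tested were called from 0.325 to 3 µM. With the 4 doses together 0 of 7 were called beside 0.749% of all genes. None of the 7 had an unadjusted p below 0.05 in these contrasts, where 872 to 1234 of the 12012 genes did. DESeq2 called 0 of 7 as well. These dose contrasts share their 3 vehicle libraries.

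The log2 fold changes of the 4 doses together at 6 h lay between −0.14 (*mt-Nd6*, SE 0.16) and 0.06 (*mt-Nd2*, SE 0.10). Their median was −0.022, beside −0.019 over all genes tested. *mt-Nd1*, for example, had 7554, 8091 and 9831 CPM in vehicle, and 7721, 8635 and 10346 CPM in the 12 CBD libraries (lowest, median, highest). Vehicle and CBD libraries overlapped for all 7 genes at every dose of 6 h, where 10.7%, 11.7%, 11.6% and 12.9% of all genes did not, and 1.45% of all genes had all 12 CBD libraries on the same side of vehicle. The 95% intervals of the pooled change reached from −0.48 to 0.28 over the 7 genes, so that changes of that size remain possible at this spread. As a share of mitochondrial reads the log2 fold changes lay between −0.13 and 0.08, and 0 of 7 passed beside 0.641% of all genes.

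At 24 h, edgeR also called 0 of 7 at each dose, beside 0.0660%, 0.0825%, 0.0413% and 0.00825% of the 12118 genes tested. With the 4 doses together 0 of 7 were called beside 0.107% of all genes. Here 3, 3, 2 and 2 of the genes had an unadjusted p below 0.05 at the single doses, and 3 with the doses together. Of all 12118 genes 1009, 924, 889 and 1110 had such a p at the single doses, and 815 with the doses together. DESeq2 called 0 of 7 at 1.5 and 3 µM and 0 with the doses together. The fitted log2 fold change was below 0 for all 7 genes at every dose, but the doses share vehicle libraries and the genes share libraries, so these values are not independent.

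With the doses together at 24 h, *mt-Nd2* had 11017, 13477 and 12102 CPM in vehicle and 7717, 10212 and 12119 CPM in the 12 CBD libraries (lowest, median, highest). Its log2 fold change was −0.27 (95% interval −0.46 to −0.08, FDR = 0.567). The other 6 genes had log2 fold changes between −0.31 (*mt-Nd6*, SE 0.23) and −0.15 (*mt-Co1*, SE 0.080). The median over the 7 genes was −0.19, beside −0.006 over all genes tested. No gene of the 7 had all 12 CBD libraries on the same side of vehicle, and 0.635% of all genes did.

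On the scale of mitochondrial reads the same 24 h contrast lay between −0.05 and 0.06 for the 7 genes. Their median was 0.037, with 0.211 over all genes tested on this scale, and 0 of 7 passed beside 7.83% of all genes. The protein genes made up 70.5% to 76.1% of the mitochondrial reads in the group means of 24 h, so a median near 0 on this scale is in large part set by the scaling. Vehicle and 3 µM libraries of 24 h had more uniquely mapped reads outside genes, at 21.4% in both groups, than the lower doses, at 19.4% to 19.7%. The part of this in the result was not tested beyond a fit with that share as a covariate, in which the log2 fold change of *mt-Nd4* was 0.07 and that of *mt-Nd6* was 0.46. Without the third vehicle library of 24 h they were 0.04 and 0.37.

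**Figure D4:**
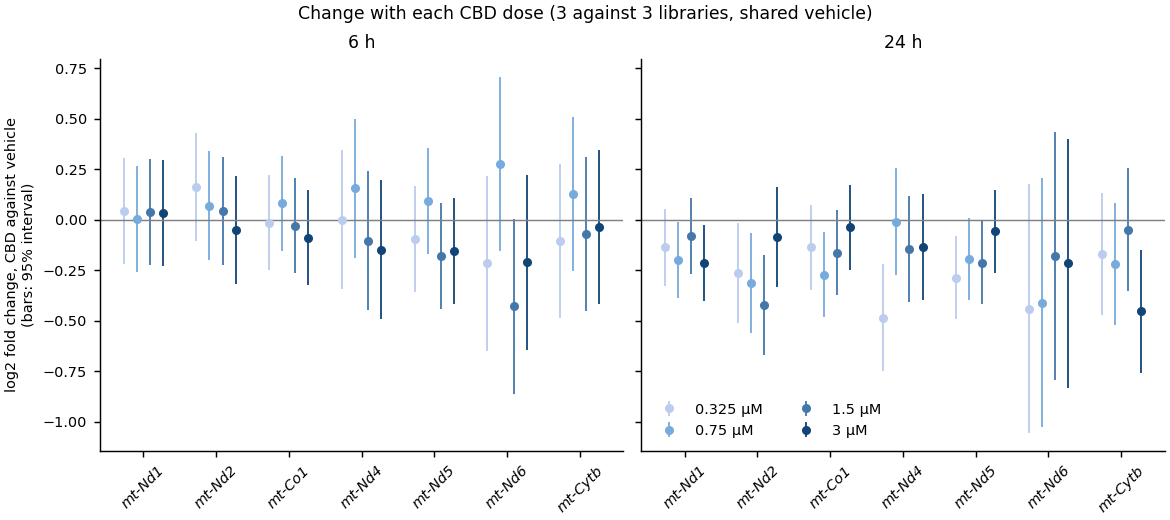
Points are log2 fold changes of each CBD dose against vehicle (3 against 3 libraries, y axis) with 95% intervals, for 7 genes (x axis) at 6 h and 24 h. Points at 6 h scatter around 0, and those at 24 h lie below 0, with *mt-Nd4* at 0.325 µM at −0.49 and *mt-Nd2* at 1.5 µM at −0.42.

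The largest dose differences at 24 h were in different genes at different doses. *mt-Nd4* had 24460.0, 19987 and 20791 CPM at 0.325 µM and 24952, 26600.3 and 39170.1 CPM in vehicle, without overlap. Its log2 fold change was −0.49 (95% interval −0.75 to −0.22, FDR = 0.267). At 0.75 µM the same gene had 31611, 30259 and 29194 CPM, within the range of vehicle, with a log2 fold change of −0.01 (SE 0.13). At 1.5 µM it had 25052, 28727 and 28663 CPM and at 3 µM 24554, 30657 and 27100.4 CPM. The dose order of *mt-Nd4* was therefore not monotonic, and a trend over log2 dose among the CBD groups had an edgeR FDR of at least 0.227 for each of the 7 genes. The trend called 0 of 7 beside 3.13% of all genes, and the test of any difference among the 4 doses called 0 of 7 beside 1.93%, or beside 1.98% as a share of mitochondrial reads. The unadjusted p was below 0.05 for 2, 1 and 2 genes in these tests, where 2005, 1753 and 1812 of all 12118 genes had such a p. DESeq2 called 0 for the trend and 1 for any difference in CPM.

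*mt-Nd2* at 1.5 µM had 8978, 10789.6 and 7717 CPM, all below vehicle (log2 fold change −0.42, SE 0.12, FDR = 0.454). *mt-Cytb* at 3 µM had 5028, 8406 and 6574 CPM, against 9321, 7445 and 10724 CPM in vehicle, with overlap (log2 fold change −0.45, SE 0.15, FDR = 0.507). Overlap at single doses was counted on CPM with TMM factors of the 15 libraries of 24 h, and libraries without overlap were all lower with CBD. They were those of *mt-Nd1*, *mt-Nd4* and *mt-Nd5* at 0.325 µM, *mt-Nd1*, *mt-Nd2*, *mt-Co1* and *mt-Nd5* at 0.75 µM, *mt-Nd2*, *mt-Co1* and *mt-Nd5* at 1.5 µM, and *mt-Nd1* at 3 µM. On the CPM of all 30 libraries, which is the scale printed here, *mt-Co1* overlapped at 1.5 µM, with a highest library of 1176 CPM against a lowest of 1157 CPM in vehicle. Over all genes 13.3%, 14.9%, 13.1% and 10.4% did not overlap at these doses.

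The change from vehicle to CBD did not differ detectably between the times. In the test of that difference 0 of 7 passed beside 0.235% of all genes, and the unadjusted p was below 0.05 for 1 gene, *mt-Nd2*. Of all 12790 genes 834 had such a p. The log2 differences of 24 h minus 6 h lay between −0.32 (*mt-Nd2*, 95% interval −0.62 to −0.03, FDR = 0.73) and −0.10 (*mt-Nd5*). DESeq2 called 0 of 7 as well.

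**Figure D5:**
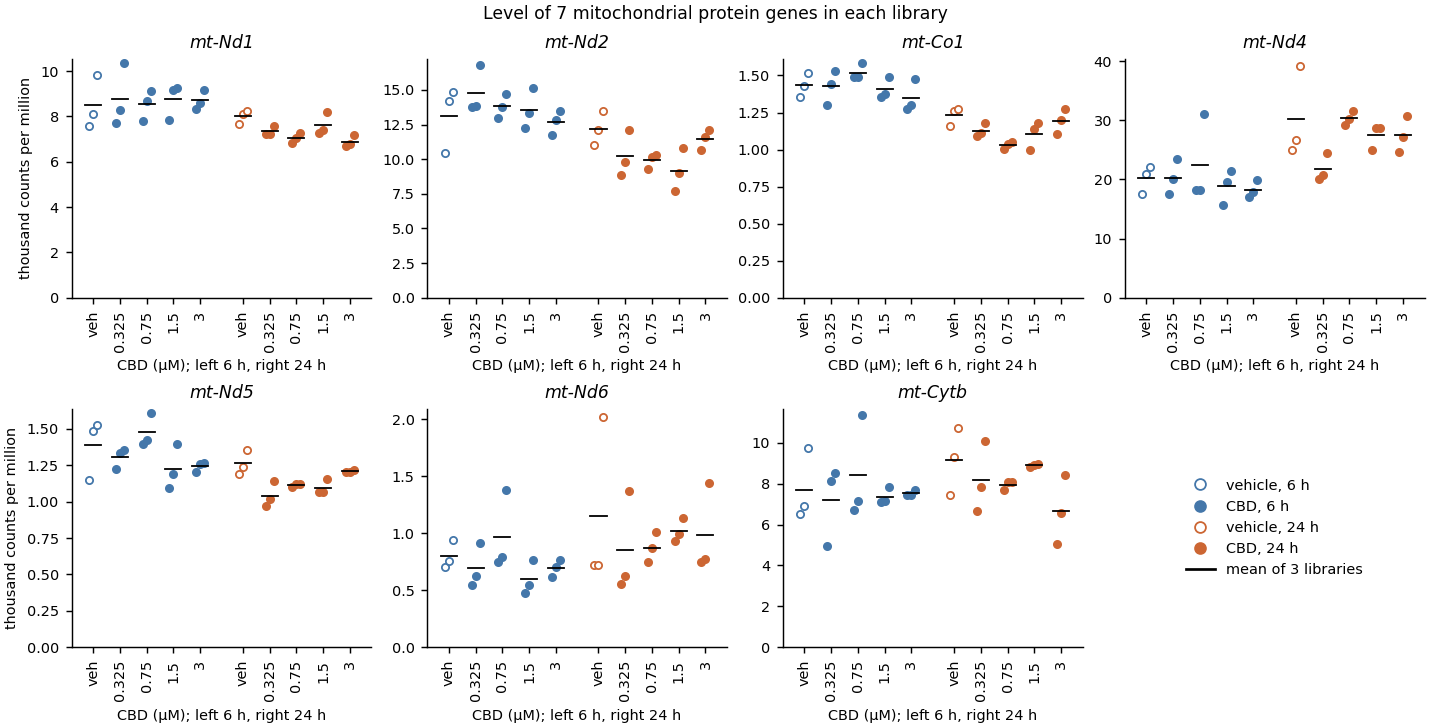
Each panel is a gene, with the level of every library in CPM (y axis, from 0, divided by 1000) by dose in µM and time (x axis), open points for vehicle and a line at the mean of 3 libraries. *mt-Co1* lies lower in all libraries of 24 h, *mt-Nd4* lies mostly higher, and the third vehicle library of 24 h is the high point of *mt-Nd4* (39170.1 CPM) and *mt-Nd6* (2015 CPM).

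Among the CBD doses, 3 µM was set against the 3 lower doses, a contrast chosen with earlier results known. At 24 h edgeR called 0 of 7 in CPM beside 10.5% of all genes, and DESeq2 called 1, *mt-Nd5*. The unadjusted p of edgeR was below 0.05 for 3 of the 7, and for 2620 of all 12118 genes. *mt-Nd2* was 0.25 higher on the log2 scale (SE 0.097, FDR = 0.126) and *mt-Cytb* was at −0.31 (SE 0.12, FDR = 0.137). At 6 h 0 of 7 were called, as were 0 of all genes. No gene of the 7 had an unadjusted p below 0.05, where 624 of all 12012 genes did.

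As a share of mitochondrial reads, *mt-Cytb* fell at 3 µM against the lower doses at 24 h (log2 fold change −0.41, SE 0.12, FDR = 0.0386), the 1 of 7 to pass, where 10.5% of all genes passed and 7.22% were lower. Its share was 8.42% ± 1.90 at 3 µM (SD, n = 3). At 0.325, 0.75 and 1.5 µM the means were 11.4%, 10.4% and 11.8%, and in vehicle 10.4%. The 3 µM mean was the lowest and had a wide spread. The call was lost with reads outside genes as a covariate (FDR = 0.34), with protein genes alone as the denominator (FDR = 0.101), and without the first or the third 3 µM library.

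The 7 genes differed in how closely replicates agreed. The median coefficient of variation within groups was 26.5% for *mt-Nd6*, 19.5% for *mt-Cytb*, 11.4% for *mt-Nd4* and 10.6% for *mt-Nd2*. It was 6.03% for *mt-Nd5*, 5.66% for *mt-Nd1* and 5.49% for *mt-Co1*. The counts of *mt-Co1* were thus close between replicates at a low level, and those of *mt-Cytb*, with more reads, were not. In *mt-Co1* 100% of the last 200 windows of 100 bases are copied, so its count may lack reads set aside as not unique. That was not tested. The highest library of *mt-Nd6* was 4.20 times the lowest, where that ratio was 1.58 for *mt-Co1*.

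Some of the 7 genes were high in the same libraries. The third vehicle library of 24 h was the highest in *mt-Nd4* and *mt-Nd6* of all 30, and the third 0.75 µM library of 6 h was the highest in *mt-Cytb*, *mt-Co1* and *mt-Nd5*. Over the 30 libraries, which share depth and groups between genes, Pearson's r of log2 CPM was 0.68 for *mt-Nd6* with *mt-Cytb* and 0.63 for *mt-Nd4* with *mt-Nd6*. Within groups these were 0.75 and 0.55. *mt-Nd4* went less closely with *mt-Cytb* (r = 0.33, and 0.34 within groups), and with *mt-Nd5* it was at −0.07 over all libraries and 0.57 within groups. *mt-Nd2* went with *mt-Co1* (r = 0.81) and with *mt-Nd5* (r = 0.79), and within groups at 0.44 and 0.68. *mt-Nd2* and *mt-Cytb* ran opposite, at −0.46 over all libraries and −0.60 within groups. These correlations are descriptions over 30 libraries of 10 groups.

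Genes were also ranked by how alike their pattern was to each member, with the members themselves left out. Of the 12790 genes tested 20 were of the mitochondrial genome, members included, so nearly all candidates were nuclear. By Pearson's r of log2 CPM over the same 30 libraries, the genes most like each member were mostly nuclear too. For *mt-Nd2* they were *Emp3* (r = 0.92) and *mt-Rnr1* (0.91), and for *mt-Co1* *mt-Rnr2* (0.92) and *Selenos* (0.90). *mt-Nd4* was most like *Pura* (0.90) and *Bmp4* (0.88), and *mt-Nd1* most like *Angptl2* (0.86) and *Eif5a* (0.85). *mt-Cytb* was most like *1810037I17Rik* (0.85) and *Sgce* (0.84), *mt-Nd5* most like *Fyb* and *Atp2b1* (both 0.82), and *mt-Nd6* most like *Cwf19l2* (0.77) and *Rps24* (0.76). The 2 rRNA genes appear for *mt-Nd2* and *mt-Co1*, which fell with time as they did.

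A nuclear copy with many reads, *Gm13340*, was singled out after its values were seen. It is a pseudogene on the minus strand of chromosome 2, chr2:22588103-22589647 (GRCm38), aligned over all 1545 bases of *mt-Co1* with 97.6% identity. It held 150521 reads, more than *mt-Co1* itself, and it was the only one of 15 similar genes with at least 1000 reads. In vehicle it had 2037, 2531 and 2255 CPM at 6 h and 1099.9, 1703 and 1051 CPM at 24 h, without overlap. The log2 fold change between the vehicle groups was −0.82 (SE 0.21, FDR = 0.0050), and between all groups of 24 h and 6 h it was −0.94 (SE 0.095). Its r with *mt-Co1* was 0.80 over 30 libraries and 0.38 within groups. Whether its reads come from *mt-Co1* transcripts was not tested.

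Genes of the nucleus that serve the same machinery were counted from fixed lists. Of the RNA machinery of mitochondria (polymerase, transcription and maturation factors), 34 of 35 were found and 29 to 31 tested. With the doses together 0 passed at 6 h or at 24 h, beside 0.749% and 0.107% of all genes. *Lrpprc*, which binds and protects mitochondrial mRNAs, rose at 0.75 µM of 24 h (log2 fold change 0.61, SE 0.13, FDR = 0.096), where 0.0825% of all genes rose. *Tfb2m*, a transcription factor of the organelle, and *Angel2* fell at 3 µM against the lower doses at 24 h (−1.40, SE 0.47, and −0.46, SE 0.14). Of all genes 4.16% fell there. Between 24 h and 6 h, 4 of 31 rose and 7 fell, beside 28.4% and 30.5% of all genes.

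Of 35 nuclear subunits of complex I tested, 0 passed with the CBD doses together at 6 h or at 24 h, beside 0.749% and 0.107% of all genes. In vehicle 12 rose from 6 h to 24 h and 0 fell, where 12.5% of all genes rose and 14.2% fell. *Ndufa11* is an example (log2 fold change 0.58, SE 0.13, FDR = 0.0017). Over all groups 19 of the 35 rose with time and 3 fell, beside 28.4% and 30.5% of all genes. Of the mitochondrial genes of the same complex, *mt-Nd4* and *mt-Nd6* rose and *mt-Nd1*, *mt-Nd2* and *mt-Nd5* fell. At 3 µM against the lower doses at 24 h, 5 of the 35 fell and 1 rose, beside 4.16% and 6.36% of all genes.

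Of 33 nuclear subunits of complexes III, IV and V tested, 1 passed with the doses together at 6 h and 0 at 24 h. Of all genes 0.749% and 0.107% did so. The 1 that passed was *Uqcrc1*, a core subunit of complex III (log2 fold change 0.52, SE 0.13, FDR = 0.083). At 3 µM against the lower doses at 24 h 8 fell and 0 rose, beside 4.16% and 6.36% of all genes, among them *Cox8a* (−0.46, SE 0.12, FDR = 0.0226). In vehicle 6 rose and 2 fell from 6 h to 24 h, beside 12.5% and 14.2%, and over all groups 13 rose and 6 fell, beside 28.4% and 30.5%. *mt-Co1*, of complex IV, fell in that comparison and *mt-Cytb*, of complex III, did not pass. Of 9 regulators of mitochondrial biogenesis tested, *Esrra* fell in vehicle with time (−1.01, SE 0.41, FDR = 0.081), where 14.2% of all genes fell. Over all groups 1 rose and 3 fell, beside 28.4% and 30.5% of all genes.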

How the data were processed

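Polyadenylated RNA of 30 libraries was sequenced by the authors with QuantSeq 3′ mRNA-Seq as 150-base single reads. Reads were trimmed with Flexbar, mapped with STAR 2.7.5c to GRCm39 and counted with HTSeq 1.99.2 on Ensembl 109, and the strand setting is not given in the sources used here. The deposited values are raw counts of reads per gene, not normalized, and 0 columns were left unmapped to a sample.

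Counts were analysed with edgeR 4.0.16 in R 4.3.3, by the quasi-likelihood test after filterByExpr and TMM, on 15 libraries per time, or on all 30 for time. The FDR is the Benjamini-Hochberg value taken across every gene tested, and 0.1 was the threshold. Printed CPM used TMM factors of the 30-library fit. For shares, the total of mitochondrial reads replaced the library size, with no TMM factor. DESeq2 1.42.0 was an alternative. The steps were tested on simulated data.

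All 10 genes are described, other mitochondrial genes where they passed, and for each member the 2 genes with the highest correlation, members excluded. The members, lists and some contrasts were chosen with earlier results of these data known. Positions and sequences are from GENCODE M21 (GRCm38), while reads had been counted on GRCm39. Copies were sought with blastn 2.17.0 among 141730 transcripts.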

Additional observations from a re-analysis of the deposited data

How the results depend on the processing

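No paired analysis was possible because each library has its own number in the labels. All members called for CBD at 6 h at single doses or together stayed at 0 under every alternative, as did the pooled contrast at 24 h and the difference between the times, and the count for 24 h against 6 h was 6 to 7 in CPM and 5 to 7 in shares, over the alternatives and with each library left out. Without a filter on low counts, 1 gene was called for any difference among doses at 6 h (*mt-Nd6*), and at 24 h 2 at 0.325 µM, 1 at 1.5 µM, 1 at 3 µM, 2 for any difference, 1 for the dose trend, 2 for 3 µM against lower doses, 3 for vehicle time, and on the share scale 1 for any difference and 2 for vehicle time. With DESeq2 at 24 h, 2 were called at 0.325 µM, 2 at 0.75 µM, 1 for any difference, 1 for 3 µM against lower doses and 2 for vehicle time. On the share scale, with protein genes as denominator, 3 were called for vehicle time and 0 for 3 µM against lower doses, which was also 0 with the outside-gene covariate. The median mitochondrial share of 8.02% was 5.33% with protein genes only. The cause of these shifts was not tested. The covariate turned the sign of *mt-Nd1* (−0.00502 at 6 h, 0.0732 for vehicle time), *mt-Nd4* (0.0695 at 24 h) and *mt-Nd6* (0.46 at 24 h), and no filter that of *mt-Co1* (0.00639 at 6 h), none of them called. The protein-gene denominator turned the called share change of *mt-Cytb* with time to −0.00038.

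Leaving out each library gave counts of 0 to 1 at 0.325 µM (1 without the first vehicle library of 24 h) and 0 to 1 at 3 µM of 24 h, 0 to 2 for any difference, 0 to 1 for the trend (the last 3 changed without the second 3 µM library), 0 to 2 for 3 µM against lower doses (changed without the third 0.325 µM, the second 1.5 µM or the second 3 µM library), 0 to 2 for vehicle time, 0 to 1 for any difference in shares (changed without the third 0.325 µM or the second 3 µM library) and 0 to 1 for 3 µM against lower doses in shares. Log2 fold changes of CBD at 6 h then ranged from −0.0448 to 0.15 for *mt-Nd1*, −0.0843 to 0.15 for *mt-Nd2*, −0.0503 to 0.0315 for *mt-Co1*, −0.11 to 0.050 for *mt-Nd4* and −0.13 to 0.18 for *mt-Cytb*. At 24 h they ranged from −0.32 to 0.0412 for *mt-Nd4* and −0.56 to 0.37 for *mt-Nd6*, and for vehicle time from −0.15 to 0.0506 for *mt-Nd1*, −0.24 to 0.000229 for *mt-Nd2* and −0.14 to 0.78 for *mt-Nd6*. Among the members, levels at or near the counting floor were met only in *mt-Co2*, *mt-Co3* and *mt-Atp6*. Vehicle time in shares stayed at 1. The time contrast over all groups and the extra share contrasts were added after the values were seen.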

Other observations

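*mt-Nd3*, a small complex I gene that was no member of the set, passed with the CBD doses together at 24 h (log2 fold change −1.96, SE 0.40, edgeR FDR = 0.0443), where 0.107% of all genes passed. It had 342 reads in all libraries. In vehicle it had 6.06, 6.63 and 16.2 CPM at 24 h. The 12 CBD libraries of 24 h had 1.13, 1.79 and 5.88 CPM (lowest, median, highest), so the call rests on levels near the counting floor. *mt-Nd3* too has a copy on chromosome 1.

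The mitochondrial tRNA genes *mt-Tq* and *mt-Tp* and the rRNA gene *mt-Rnr1* were higher at 3 µM than at the lower doses at 24 h, with log2 fold changes of 1.04 (SE 0.20, edgeR FDR = 0.0042), 0.60 (SE 0.12, FDR = 0.0056) and 0.42 (SE 0.099, FDR = 0.0146). They were 3 of the 11 mitochondrial genes outside the set that were tested, where 6.36% of all genes were higher. By edgeR 0 of the 7 measured protein genes passed that comparison in CPM. The 3 µM levels of *mt-Tq*, *mt-Tp* and *mt-Rnr1* lay near vehicle of 24 h. Means at 3 µM were 38.9, 659 and 7372 CPM, and in vehicle 34.1, 575 and 7465 CPM, with overlapping libraries. Vehicle and 3 µM libraries also had more reads outside genes, at 21.4% in both groups. The part of this in the result was not tested.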
